A study of Oryza sativa with 3 samples.

Results

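The 24-nt rows of a miRNA read count table were described in young panicles of rice (Oryza sativa). A row was a member when its sequence was 24 letters long and its name fell neither in a late-numbered block of low-abundance miRNAs nor in a conserved or monocot family described elsewhere. By this rule 69 of the 367 rows were members, of 52 families, and 12 further 24-letter rows were left out by name, of which miR168a and miR5807 had the most reads. The groups were japonica wild type and the mutants ld-1 and ld-2, all untreated, with 1 library of young panicle per genotype. The series title ties the lodiculeless spikelet, whose closed flowering is called cleistogamy, to a mutation of miR172b. Plants grew under glass or in the field. The sources used here do not say which library had which, how old the panicles were or how many plants were pooled.

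Wherever 3 values follow each other without a label, they stand for wild type, ld-1 and ld-2 in that order. The total of miRNA reads was 116818, 140807 and 66642, so the shallowest library was ld-2. Reads of miR172b itself numbered 298, 2 and 1. A miRNA table holds no gene markers, and the labelled tissue could not be checked against them. The 12 tested sequences of miR2118, a trigger of phased small RNAs in developing grass anthers, had 1292, 1208 and 2880 reads. The part of this ld-2 difference in the results below was not tested. With 1 library per genotype there is no replicate: every interval covers counting error alone, and plant-to-plant variation was not measured. In bulk tissue, fewer cells of a type and less RNA per cell cannot be told apart.

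Most plant miRNAs are 21-nt RNAs cut from hairpin precursors by DCL1 and loaded into AGO1, where they direct cleavage or translational repression of mRNAs. A class of longer miRNAs is known in rice, cut from hairpins by DCL3 and loaded into proteins of the AGO4 clade. Some of them direct DNA methylation at their own loci and at target loci, as small interfering RNAs of heterochromatin do. AGO4-clade proteins favour small RNAs that begin with adenine, and AGO1 favours those that begin with uracil. The miR812 family of rice is known to derive from miniature inverted-repeat transposable elements of the Stowaway type.

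Sequences of 9 of the 10 most abundant members are shown because they carry most of the reads of the class. They are written 5′ to 3′ with T for U, as in the deposited table, and the capitals mark the seed, bases 2 to 8:
miR1862d: aCTAGGTTtgtttattttgggacg
miR1876: aTAAGTGGgtttgtgggctggccc
miR1862a//miR1862b//miR1862c: aCGAGGTTggtttattttgggacg
miR1868: tCACGGAAaacgagggagcagcca
miR1878: aCTTAATCtggacactataaaaga
miR1871: aTGGCTCTgatatcatgttggttt
miR1879: gTGTTTGGtttagggatgaggtgg
miR5159: aACTAGAGtgggtcaacgggtacc
miR1883a//miR1883b: aCCTGTGAcgggccgagaatggaa

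No seed is shared among these 9, and the 69 members hold 67 different seeds. Shared seeds among members were those of miR1863a with miR1863b and of miR812g//miR812h//miR812i//miR812j with miR812s, which had no read. With rows outside the class, 1 of the 2 miR5150 sequences shares its seed with miR167a//miR167b//miR167c and miR167d//miR167e//miR167f//miR167g//miR167h//miR167i//miR167j. miR1862a//miR1862b//miR1862c shares its seed with miR2106, miR812p with miR812a//miR812b//miR812c//miR812d//miR812e, and miR531a//miR531c with miR531b. A shared seed is a description of the letters and says nothing on targets, since plant miRNAs pair with targets over nearly their whole length.

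Reads in the class were concentrated in a few sequences. Of the 69 members, 7 had no read in any library, 29 had 1 to 9 reads summed over the libraries, 11 had 10 to 29, and 22 had at least 30, the minimum for a ratio to be considered. Those 22 tested members held 95.3% of the 6055 reads of the class, and the 10 most abundant members held 80.7%. Among all 367 rows, 29.7% reached 30 reads, against 31.9% of the members. Rows without any read made up 10.1% of the members and 24.5% of the table. The highest member, miR1862d, ranked 14 in the table, and 5 members were among the 50 most abundant rows.

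Levels are given as scaled RPM, reads scaled to a library size that was corrected by the trimmed mean of M values. A single read is worth 8.37, 7.94 and 13.7 scaled RPM. miR1862d had 654, 794 and 497 reads, levels of 5474, 6305 and 6822 scaled RPM. It was the leading member in each library, with 31.4%, 32.5% and 32.5% of the class. miR1876 came next with 340, 392 and 275 reads, or 16.35%, 16.03% and 17.97% of the class. These 2 sequences thus held close to the same part of the class in all 3 genotypes, and together 48.8% of its reads.

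Below them, miR1862a//miR1862b//miR1862c had 129, 144 and 111 reads. miR1868 had 122, 176 and 76, and miR1878 had 85, 123 and 69. The order of these members differed little between libraries: 8 members were in the top 10 of every library, and 12 were in the top 10 of at least 1. Neighbours in the order often lay closer than their counting error, such as miR1862a//miR1862b//miR1862c and miR1868, with 129 and 122 reads in wild type.

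**Figure D1:**
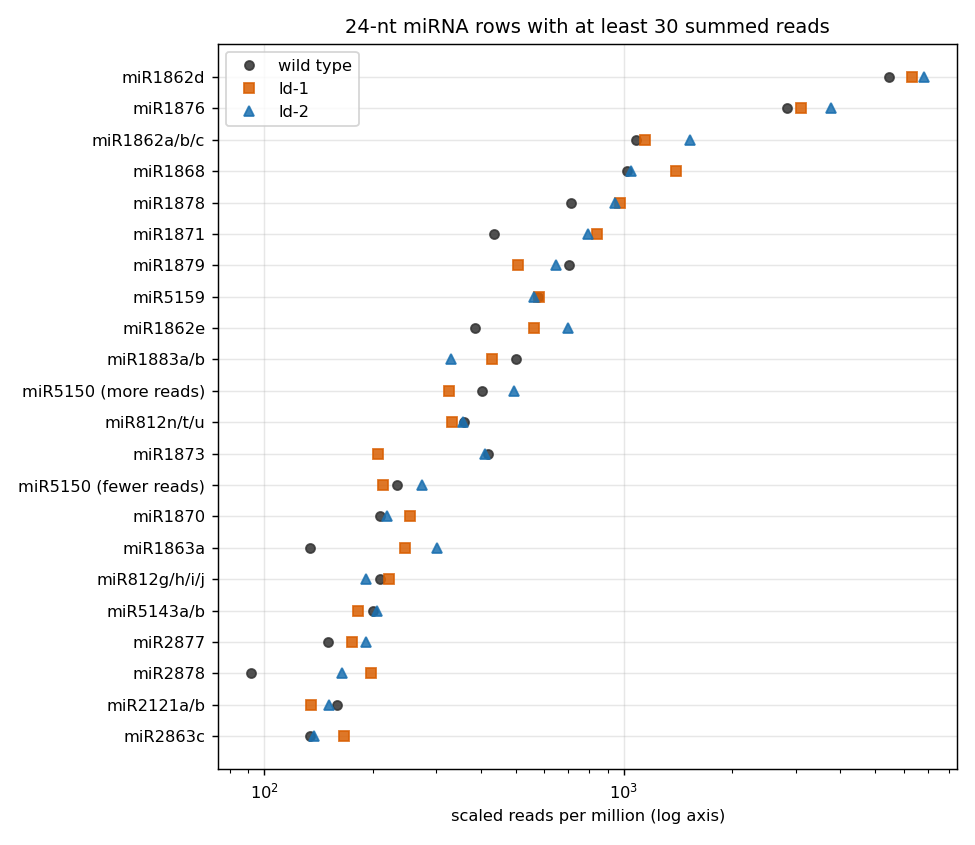
Levels of the 22 members with at least 30 summed reads, in scaled RPM on a log axis, with 1 point per library and no error bars. miR1862d and miR1876 stand above the other members in all 3 libraries.

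A feature that the choice of members did not use is the first base. Adenine began 35 of the 69 members (50.7%), uracil 20 (29.0%), guanine 9 and cytosine 5. Among the 206 rows of 21 nt, adenine began 42 (20.4%) and uracil 105 (51.0%), and among the 55 rows of 22 nt, adenine began 10 and uracil 25. Weighted by reads the contrast was wider. Members beginning with adenine took 77.5%, 78.8% and 80.4% of the class reads, while 21-nt rows beginning with uracil took 96.5%, 96.7% and 96.7% of the 21-nt reads. Without miR1862d the adenine share of the class was 67.1%, 68.6% and 71.0%. Leaving the most abundant rows of the table out of the 21-nt rows, their uracil share was 81.1%, 81.2% and 84.4%. Of the 22 tested members 13 began with adenine, against 4 of the 64 tested 21-nt rows. The 21-nt and 22-nt rows were taken whole, without the name rule that left conserved families out of the class. The contrast therefore mixes length with that rule. Of the 12 24-letter rows left out by name, 9 began with adenine, with 34.2% of their reads. These are counts over sequences, many of them related, and no test was made. Median GC content was 45.8% over the members and 50% over the 21-nt rows.

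**Figure D2:**
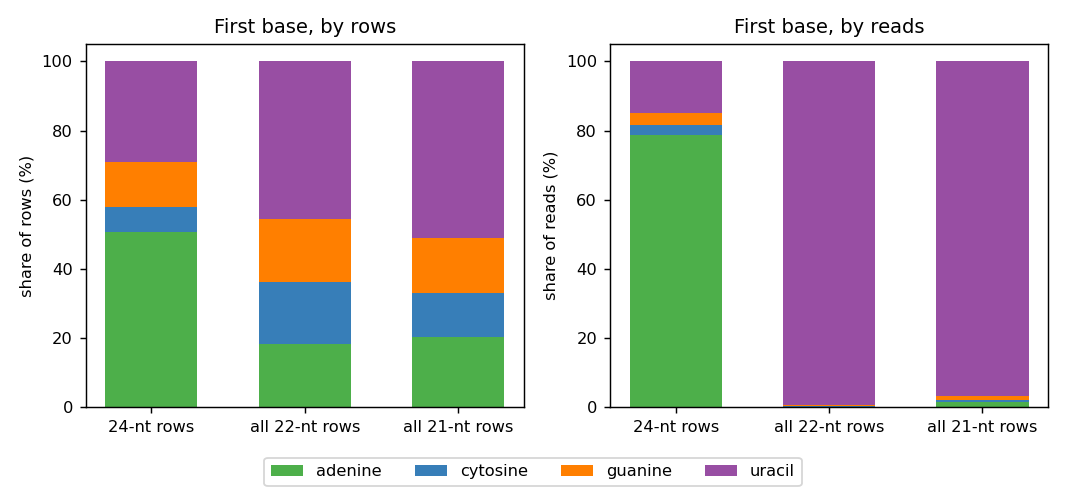
Share of rows (left) and of reads summed over the 3 libraries (right) by first base, in percent, for the 69 members, all 22-nt rows and all 21-nt rows. Adenine begins 50.7% of the members and 20.4% of the 21-nt rows, and the reads of the class lie mostly with adenine. The name rule of the members was not applied to the 21-nt and 22-nt rows.

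As a whole the 24-nt class was a small part of the miRNA reads. It took 2080 reads in wild type, 1.78% of the library (exact 95% Clopper-Pearson interval 1.71% to 1.86%). In ld-1 it took 2445 reads, 1.74% (1.67% to 1.81%), and in ld-2 1530 reads, 2.30% (2.18% to 2.41%). The share in ld-2 lay above both others beyond counting error. This ordering rests on the denominator, which a few 21-nt and 22-nt rows dominate. With the 5 most abundant rows of the table left out, the class took 8.27% (7.93% to 8.61%), 8.63% (8.31% to 8.96%) and 8.65% (8.24% to 9.07%), and all 3 intervals overlapped.

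**Figure D3:**
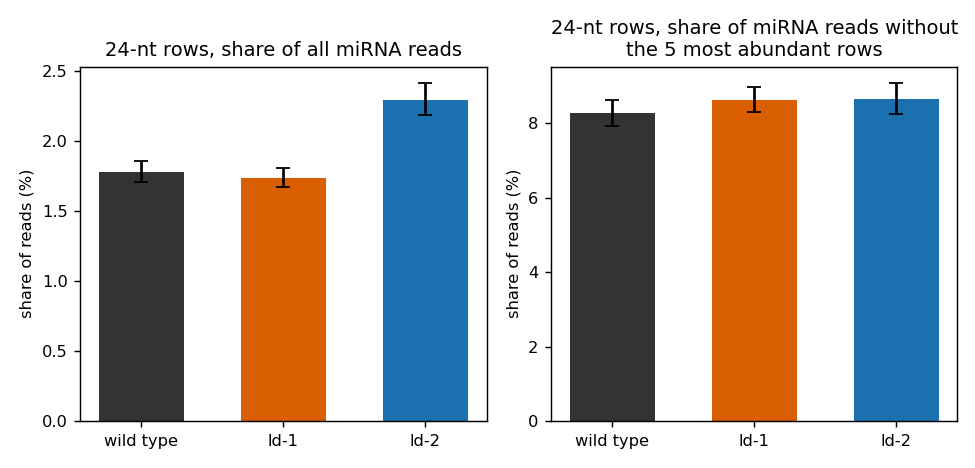
Share of the 69 members in all miRNA reads (left) and in the miRNA reads without the 5 most abundant rows (right), in percent by library, with exact 95% binomial intervals for counting error. The ld-2 bar at 2.30% stands above the others on the left, and the bars on the right, 8.27% to 8.65%, have overlapping intervals.

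After scaling, the summed class had a log2 ratio to wild type of 0.16 in ld-1 (95% interval 0.07 to 0.24). The value for ld-2 was 0.27 (0.17 to 0.37). As folds these are 1.12 and 1.21. Neither sum came near a 2-fold difference. The sign in ld-1 turned to -0.036 (-0.12 to 0.049) with RPM of all miRNA reads. The ld-2 value fell to 0.083 (-0.013 to 0.18) with DESeq2 size factors and to 0.065 (-0.031 to 0.16) without the 5 most abundant rows, both with intervals that included 0. For comparison, the summed 22-nt rows had log2 ratios of 0.14 and 0.21 and the summed 20-nt rows of -0.03 and -0.52 in ld-1 and ld-2. The summed 21-nt rows were at 0.20 and -0.12, so that the class lay 0.05 below them in ld-1 and 0.39 above them in ld-2, whatever the scaling. Without the most abundant rows the 21-nt sum was at 0.12 and 0.06, and the class lay 0.03 and 0.21 above it. Set against the median of all 109 tested rows, a difference that no scaling changes, the class sum stood higher by 0.22 in ld-1 and by 0.24 in ld-2. The sum is weighted by reads and the median is not. Compared by medians, the tested members lay 0.17 and 0.12 higher. The 109 rows include the 22 tested members themselves. Over the 87 other tested rows the median was -0.08 in ld-1 and -0.05 in ld-2, against 0.11 and 0.15 over the tested members.

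For ld-1 the question was which members departed from wild type, and few did. A row was listed as higher or lower when it differed at least 2-fold (log2 ratio of 1) and its exact 95% interval excluded equality. Of the 22 tested members 1 was listed higher and 1 lower, where 6.42% of all tested rows were listed higher and 3.67% lower. A share this close to that of the table is no result about the class. The median log2 ratio of the 22 was 0.11, against -0.06 over all tested rows. Of the 22, 14 lay above 0, against 53 of all 109 tested rows, and the 14 fell to 10 with RPM of all miRNA reads.

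The member listed lower was miR1873, known in rice for a part in immunity to blast fungus, with 50 reads in wild type against 26, a log2 ratio of -1.02 (-1.76 to -0.31). This call ended, at -0.99, when the scaling factors were computed over all rows. The member listed higher was the more abundant miR2878 sequence, tACATGTAtaaaattctgaggatg with the seed in capitals, with 11 and 25 reads and a log2 ratio of 1.11 (0.03 to 2.28). It was no longer listed with RPM of all miRNA reads, without the 5 most abundant rows and with a 99% interval. miR1871, known in rice for a part in yield and immunity, was just short of the 2-fold threshold, with 52 and 106 reads and a log2 ratio of 0.95 (0.46 to 1.46). Of the other tested members, miR1862d (0.20), miR1868 (0.45, 0.11 to 0.80) and miR1878 (0.46, 0.05 to 0.87) had intervals above 0, all below 2-fold. With RPM of all miRNA reads, the intervals of these 3 included 0. In all, 5 of the 22 tested members had an interval above 0 in ld-1, against 22 of all 109 tested rows, a share close to that of the table. Intervals below 0 were found for 1 of the 22 and for 21 of the 109. miR1879, with 84 and 64 reads, was at -0.47 (-0.96 to 0.02).

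In ld-2 against wild type 1 tested member was listed higher and 0 lower, where 21.1% of all tested rows were listed higher and 7.34% lower. Of the 23 rows listed higher 12 were miR2118 sequences. The listed member was miR1863a, aGCTCTGAtaccatgttagattag with the seed in capitals, of a rice family known for directing DNA methylation. It had 16, 31 and 22 reads, with a log2 ratio of 1.17 (0.18 to 2.20) in ld-2 and of 0.88 (-0.04 to 1.85) in ld-1. The ld-2 call ended with DESeq2 size factors, without the 5 most abundant rows and with a 99% interval, and it rests on few reads. miR1862e, with 46 and 51 reads, was at 0.86 (0.26 to 1.47), and miR1871, with 52 and 58 reads, at 0.87 (0.31 to 1.44). Both passed a threshold of 1.5-fold.

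In ld-2, 6 of the 22 tested members had an interval above 0, against 32 of all 109 tested rows, a share close to that of the table. Intervals below 0 were found for 0 of the 22 and for 30 of the 109. The other members above 0 were among the most abundant, whose intervals are narrower. They were miR1862d at 0.32 (0.15 to 0.49), miR1876 at 0.41 (0.17 to 0.64) and miR1862a//miR1862b//miR1862c at 0.50 (0.12 to 0.87). The intervals of these 3 included 0 with DESeq2 size factors, at 0.13 (-0.041 to 0.30), 0.22 (-0.015 to 0.45) and 0.31 (-0.07 to 0.69), and also without the 5 most abundant rows. At the low end was miR1883a//miR1883b, with 60, 54 and 24 reads and a log2 ratio of -0.61 (-1.36 to 0.10) in ld-2. Its interval included 0 with this scaling and lay below 0 with DESeq2 size factors (-1.54 to -0.09), without the 5 most abundant rows (-1.56 to -0.11) and with factors over all rows (-1.47 to -0.015). The median summed depth of the members was 118 reads and that of the other tested rows 298, so their intervals differ in width. Over the 22 members the log2 ratios ran from -0.61 to 1.17, and over the 87 other tested rows from -7.51 to 3.52. The low end of the others is miR172b itself, and a range widens with the number of rows. The median of the 22 was 0.15, against 0.03 over all tested rows, and 15 of 22 lay above 0, against 55 of all 109 tested rows. The 15 became 11 of 22 with DESeq2 size factors, without the 5 most abundant rows or with factors over all rows. Both mutants were set against the same wild type library, so a departure of that 1 library would enter both comparisons.

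**Figure D4:**
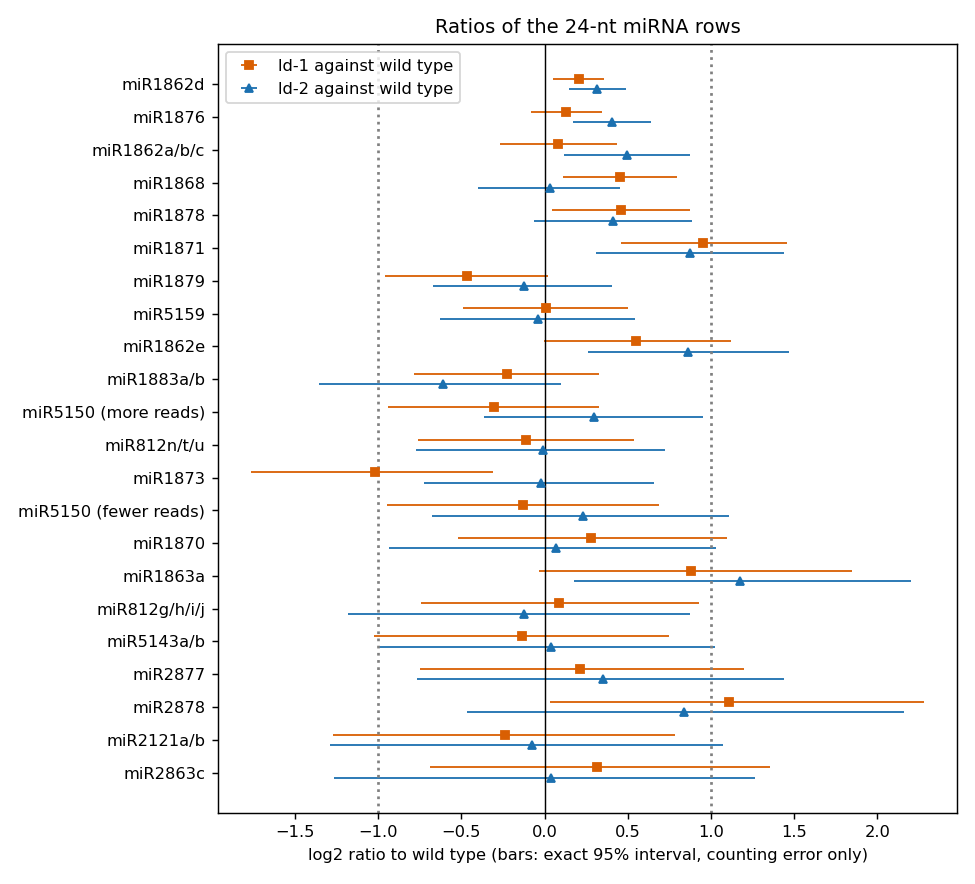
Log2 ratios to wild type of the 22 tested members in ld-1 (squares) and ld-2 (triangles), with exact 95% intervals for counting error and dotted lines at a 2-fold difference. Most intervals cross 0 and widen toward the bottom as reads fall. miR1871 and miR1863a lie to the right of 0 in both mutants, as several other members do, and the ld-1 interval of miR1863a includes 0. miR1873 lies to the left of 0 in ld-1, as do some others.

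Between the mutants, 0 of the 22 tested members were listed in either direction, where 19.3% of all tested rows were listed as higher and 5.5% as lower when ld-2 was set against ld-1. The log2 ratios of the members ran from -0.42 (miR1868, -0.83 to -0.03) to 0.996 (miR1873, 0.19 to 1.81). miR1873 had 26 reads in ld-1 and 30 in ld-2, levels of 206 and 412 scaled RPM, and its ld-2 level was close to the 419 of wild type. It was listed higher with RPM of all miRNA reads. The class sum had a log2 ratio of 0.11 (0.02 to 0.21), whose sign turned with DESeq2 size factors.

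Some of the members named above are related in sequence. miR1873 reads, on the opposite strand, nearly as miR1863a does: 17 of 19 overlapping letters match, in 1 run of 17. That run of 17 is also in miR1863b, which had 3, 0 and 1 reads. miR1873 matches miR1871 on the opposite strand only in part, over 16 of 21 letters. The longest run of that match is 9, under the 12 letters set for related pairs. The sequences are shown for this relation, with the overlap with miR1873 in capitals for miR1863a and miR1871, and the overlap with miR1871 in capitals for miR1873:
miR1863a: AGCTCTGATACCATGTTAGattag
miR1871: ATGGCTCTGATATCATGTTGGttt
miR1873: TCAACATGGTATCAGAGCTGGaag

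In ld-1 these sequences stood on opposite sides of 0, miR1871 and miR1863a at log2 ratios of 0.95 and 0.88, the latter with an interval that included 0, and miR1873 at -1.02. The division of reads within such a pair does not depend on how libraries are scaled. Of the reads of miR1871 and miR1873 together, the share of miR1871 was 51.0% (exact 95% binomial interval 40.9% to 61.0%), 80.3% (72.5% to 86.7%) and 65.9% (55.0% to 75.7%). The intervals of wild type and ld-1 did not overlap, and that of ld-2 overlapped both. For miR1863a and miR1873, miR1863a took 24.2% (14.5% to 36.4%), 54.4% (40.7% to 67.6%) and 42.3% (28.7% to 56.8%), again with wild type and ld-1 apart. Both pairs share the 50, 26 and 30 reads of miR1873, so they are not independent. These pairs were chosen after their values were seen, and the loci that the sequences come from were not analysed here.

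**Figure D5:**
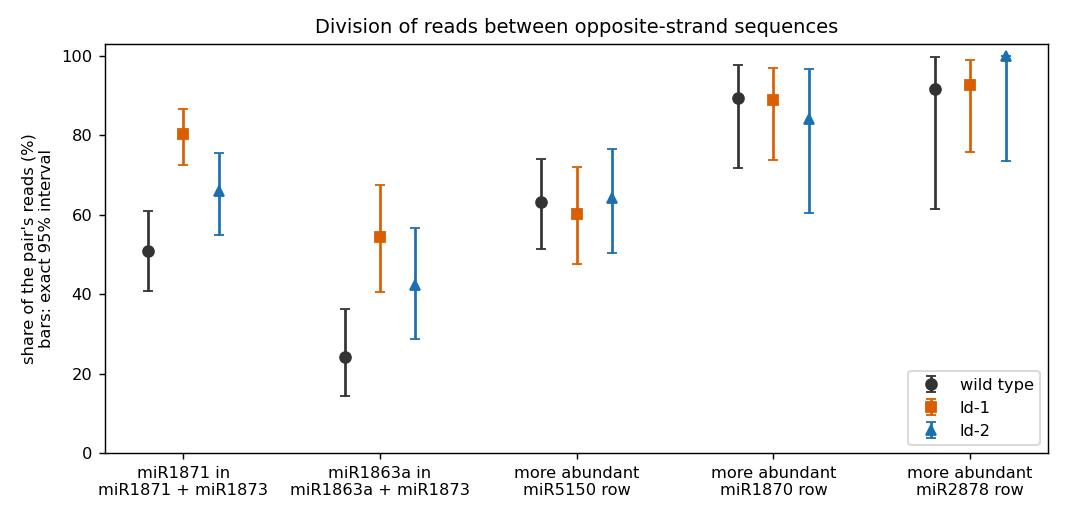
Share of the first-named or more abundant sequence in the reads of 5 pairs of sequences that match in part on opposite strands. Values are in percent by library, with exact 95% binomial intervals for counting error. The shares of miR1871 and miR1863a against miR1873 are lowest in wild type and highest in ld-1. These pairs were chosen after their values were seen, so their separation is no support for a change. The shares of miR5150, miR1870 and miR2878 have intervals that overlap in all 3 libraries. Those pairs share a name and are no control for the pairs chosen by value.

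The miR1862 family led the class with 3 rows, all tested. It had 829, 1009 and 659 reads, or 39.9%, 41.3% and 43.1% of the class. For ld-1 the sum stood at a log2 ratio of 0.21 (0.07 to 0.34), and for ld-2 at 0.38 (0.23 to 0.53). The ld-1 value fell to 0.014 with RPM of all miRNA reads. Its leading rows are close in letters, shown here with the run of 15 that they share in capitals:
miR1862a//miR1862b//miR1862c: acgaggttgGTTTATTTTGGGACG
miR1862d: actaggtttGTTTATTTTGGGACG

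Counting positions from 1 at the 5′ end, miR1862a//miR1862b//miR1862c differs from miR1862d by G3T and G9T. The sources used here do not say how the authors divided reads among near-identical sequences, so single rows of the family are less certain than their sum.

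The miR812 family had the most rows of the class, 9, but few reads, 81, 85 and 53. Summed, it stood at -0.01 (-0.46 to 0.45) in ld-1 and at 0.10 (-0.43 to 0.62) in ld-2. Of its rows, miR812n//miR812t//miR812u (43, 42 and 26 reads) and miR812g//miR812h//miR812i//miR812j (25, 28 and 14 reads) were tested, and both had intervals that included 0 in each comparison. The others had 0 to 9 reads in any library, and miR812s had none. miR812f had 1, 6 and 4 reads and shares a run of 21 letters with miR812g//miR812h//miR812i//miR812j, so how its reads were kept apart from that row depends on the counting. The miR1863 family, with miR1863c (7, 15 and 4 reads) and miR1863b (3, 0 and 1) beside miR1863a, had log2 ratios of 0.75 (0.02 to 1.5) and 0.77 (-0.06 to 1.60). Its ld-1 interval included 0 with RPM of all miRNA reads (-0.17 to 1.31) and without the 5 most abundant rows (-0.07 to 1.40). Its ld-2 interval lay above 0 with RPM of all miRNA reads (0.03 to 1.70).

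In 5 cases 2 members bear exactly the same name, and in each the 2 sequences match over a run of at least 9 letters on opposite strands, as the arms of a hairpin do. The table names no arms. The miR5150 sequences match over 18 letters and were both abundant, aGCTTCTGacagctgcagtttctc with 48, 41 and 36 reads and aGAAGCTGcagctgtcagaagctc with 28, 27 and 20. The former took 63.2%, 60.3% and 64.3% of their reads, with overlapping intervals. In the other 4 pairs 1 sequence took most of the reads, 88.0% for miR1870, 94.1% for miR2878, 85.7% for miR1874 and 88.9% for miR1865 over all libraries. For miR1870 the more abundant sequence had 25, 32 and 16 reads and the other 3, 4 and 3. The name miR812n also stands both alone and in the joint name miR812n//miR812t//miR812u. Those 2 rows match over 14 letters on opposite strands, with 43, 42 and 26 reads for the joint row and 4, 9 and 6 for miR812n alone.

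The tested members not yet described stayed within 2-fold. miR5159 had 69, 73 and 41 reads, with log2 ratios of 0.01 in ld-1 and -0.04 in ld-2. miR5143a//miR5143b had 24, 23 and 15 reads, and miR2877 had 18, 22 and 14. At the edge of the read minimum were miR2121a//miR2121b with 19, 17 and 11 reads and miR2863c with 16, 21 and 10. Each of these had an interval that included 0 in every comparison.

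Of the 11 members with 10 to 29 summed reads, miR1874 was lower in both mutants. Its more abundant sequence, tATGGATGgaggtgtaacccgatg with the seed in capitals, had 16, 1 and 1 reads. That is a log2 ratio of -4.08 (-9.47 to -1.39) for ld-1 and one of -3.29 (-8.68 to -0.60) for ld-2. The other miR1874 sequence, tAGGGCTActacaccatccataag, had 3 reads in wild type and 0 in both mutants, at or under the floor of 3 counts, so no ratio is given. Summed over both sequences, 19 reads in wild type stood against 1 and 1. The wide intervals come from the single reads in the mutants. The more abundant sequence reached 10 summed reads only through wild type, and both ratios use that same count. Low ratios in both mutants are therefore partly built in and are no support for a change. The share listed among all 38 rows of the table with 10 to 29 summed reads was not counted.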

How the data were processed

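Small RNA of young panicles was sequenced as 1 library per genotype. Per the labels' protocols, Trizol RNA was size-selected on a denaturing gel (20 to 30 nt), made into libraries (NEXTFlex Small RNA-seq kit v3) and read on an Illumina MiSeq. The authors deposited raw read counts, 1 row per mature miRNA sequence, per the file headers. The sources used here do not name the trimming, mapping or counting rules or the annotation release. Genome positions were not analysed here, and 1 sequence is not reported here.

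Members were selected by sequence length and name. The members, lists and tests were chosen with earlier results of these data known. Scaling factors (TMM, trimmed mean of M values) came from edgeR 4.0.16 (R 4.3.3) over the 109 rows with at least 30 summed reads. They were 1.02, 0.894 and 1.09 in the order wild type, ld-1, ld-2. Python 3.11.15 (numpy 2.4.6, pandas 2.3.3, scipy 1.17.1, matplotlib 3.10.9) gave the shares, the sequence comparisons, the plots and the ratios with exact Clopper-Pearson 95% intervals. Ratios to a count of 0 use a floor of 3 counts per library. Reads are not independent molecules, so intervals and floors cover counting error only. The listing rule was tried on simulated counts that held counting error only. They had no variation between plants and no true ratio near the 2-fold threshold, so they cannot vouch for the listed members. Named rows were every member with at least 30 summed reads, the 10 most abundant, members with at least 10 reads listed in any comparison, and other rows of their families.

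Alternatives were scaling by RPM (reads scaled to all miRNA reads), by DESeq2 1.42.0 or by totals that omit the 5 most abundant rows. Others were further read minimums, thresholds and intervals, all 24-letter rows, the class without its top member, and, chosen after seeing the data, TMM over all rows.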

Additional observations from a re-analysis of the deposited data

Results flagged for a closer look

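The miR1875 sequence aCAATGGAgtgaagtgcaacagaa (seed in capitals) lay under the read minimum of the comparisons and stood above wild type in ld-1, where it had 9 reads against 1, and 0 in the library of the other mutant. Its log2 ratio in ld-1 was 3.09 (95% interval 0.24 to 8.55). Wild type had a single read, and there is no replicate of either library. The row was flagged by this same ratio and drew nearly all its reads from ld-1, so the ratio is no separate support.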

How the results depend on the processing

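No paired analysis was possible because each genotype has 1 library, and for the same reason no replicate could be left out. The scalings shifted every log2 ratio alike, by -0.19 to 0.03 (ld-1), -0.21 to 0.10 (ld-2) and -0.19 to 0.29 (between the mutants), and left the class median 0.17, 0.12 and 0.09 above the median of all tested rows. With RPM of all miRNA reads the class sum was -0.036 (ld-1), 0.37 (ld-2) and 0.40 (between the mutants), and the miR1862 sum 0.014 (ld-1) and 0.46 (between the mutants). With DESeq2 size factors the class sum was 0.083 (ld-2) and -0.072 (between the mutants), and the miR1862 sum 0.20 and -0.011. Without the 5 most abundant rows the class sum was 0.062 (ld-1), 0.065 (ld-2) and 0.0027 (between the mutants), and the miR1862 sum 0.18 (ld-2). With TMM over all rows the class sum was 0.16 (ld-2) and -0.032 (between the mutants), and the miR1862 sum 0.030 (between the mutants). These shifts follow from the scaling alone. The sums of the 5 other families with at least 2 rows and 30 reads stayed within their intervals of the main scaling. For some of them, such as miR1863, whether the interval included 0 changed with the scaling.

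In ld-1, the members listed higher became 0 with RPM of all miRNA reads, without the 5 most abundant rows, at a minimum of 100 reads, with a 99% interval and at a log2 threshold of 1.5, and 2 with no minimum, a minimum of 10 reads or a 1.5-fold threshold; those listed lower became 0 with TMM over all rows and at a log2 threshold of 1.5, and 2 with no minimum or a minimum of 10. In ld-2, those listed higher became 0 with DESeq2 size factors, without the 5 most abundant rows, at a minimum of 100 reads, with a 99% interval and at a log2 threshold of 1.5, and 3 at 1.5-fold, and those listed lower became 1 with no minimum or a minimum of 10. Between the mutants 1 was listed higher with RPM of all miRNA reads and at 1.5-fold. The share listed among all rows of the table was counted at the main setting only. The counts at other settings are therefore no result about the class. At a minimum of 100 reads 13 members were tested. All 24-letter rows took 1.88% of the wild type reads. Against reads without the 5 most abundant rows, the 69 members took 8.27%, 8.63% and 8.65% by genotype, and all 24-letter rows 8.75%, 8.97% and 8.88%. Depth limits single members, as 13 of the 22 tested ones had at least 100 summed reads.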
